A study of Mus musculus with 30 samples.

Results

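A set of 10 genes of the epithelial tight junction was followed in the colon of mice with chemically induced colitis and tumors. They were chosen by name and comprise 7 claudins (Cldn2, Cldn3, Cldn4, Cldn7, Cldn8, Cldn15 and Cldn23), occludin (Ocln), zonula occludens 1 (Tjp1) and junctional adhesion molecule A (F11r). All 10 were found among the 46078 genes of the counts table, and all 10 passed the filter on low counts that left 16261 genes for testing. The samples were scraped epithelial layers of non-tumor colon tissue from wild-type C57BL/6J mice that were 5 to 10 weeks old at the start. Female and male mice received either saline vehicle or AOM/DSS, which is 1 injection of the carcinogen azoxymethane (AOM, 10 mg/kg) followed by repeated cycles of the irritant dextran sulfate sodium (DSS, 2.5% in the drinking water). AOM/DSS-treated mice were killed 9 or 15 weeks after the injection, and vehicle-treated mice at 9 weeks. This gave 6 groups of 5 libraries and 30 libraries in all. The same DSS cycles preceded both time points, and the 9-week time point came soon after the last of them. The 15-week mice thus had a longer time without DSS, not more DSS. The same vehicle libraries serve both time points, and no group of vehicle-treated mice was killed at 15 weeks, so treatment and time since the injection cannot be told apart there. A scrape is a bulk sample, in which fewer cells of a type and less RNA per cell cannot be told apart.

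Tight junctions seal the space between neighboring epithelial cells near their apical side. Claudins are membrane proteins that form the strands of the junction and decide which ions and water pass between cells. Most of them tighten the barrier, whereas claudin 2 and claudin 15 form channels for small cations. Occludin is a further strand protein, junctional adhesion molecule A is an immunoglobulin-like adhesion protein of the same contact, and zonula occludens 1 is the cytoplasmic scaffold that ties strand proteins to actin. In the colon, a leaky barrier is a known feature of colitis.

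Cldn4 and Cldn3 are neighbors on chromosome 5 that lie on opposite strands, each with 1 exon. Cldn4 is at chr5:134945119-134946934 on the minus strand and Cldn3 at chr5:134986214-134987472 on the plus strand (GRCm38), 39280 bases apart with 0 protein-coding genes between them. An antisense gene, Wbscr25, overlaps Cldn3, and the strand setting of the counting is not given in the sources used here, so reads of the pair may have been shared. The 250 bases before each start site are shown because Cldn4 was called under AOM/DSS below and its neighbor was not. They were taken from RefSeq promoter sequences of GRCm38.p6, which held 8 of the 10 members, and are written 5′ to 3′ on the strand of the gene. Capitals mark any match to 7 motifs searched on both strands, which are AP-1 (TGANTCA), GRHL (AACNNGTT), SP/KLF (GGGCGG), TCF/LEF (CTTTGAT), CDX (TTTATNG), Snail/ZEB (CAGGTG) and the TATA box (TATAAA).
Cldn4, chr5:134946935-134947184, minus strand: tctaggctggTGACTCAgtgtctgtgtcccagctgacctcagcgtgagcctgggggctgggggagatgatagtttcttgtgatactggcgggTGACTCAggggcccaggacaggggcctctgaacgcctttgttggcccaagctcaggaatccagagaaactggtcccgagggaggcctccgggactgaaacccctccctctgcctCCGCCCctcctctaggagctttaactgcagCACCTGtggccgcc
Cldn3, chr5:134985964-134986213, plus strand: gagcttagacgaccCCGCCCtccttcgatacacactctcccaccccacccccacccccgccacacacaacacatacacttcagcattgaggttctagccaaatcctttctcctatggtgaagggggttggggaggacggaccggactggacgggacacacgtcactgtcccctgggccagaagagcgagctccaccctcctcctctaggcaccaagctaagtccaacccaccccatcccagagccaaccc
The Cldn4 window held 2 matches to the AP-1 motif, at bases -240 to -234 and -158 to -152 from the start site, while the Cldn3 window held none. Of 32851 promoter windows of this length, 6.75% held at least 1 AP-1 match and 0.338% held 2 or more. Cldn15 and F11r held 1 AP-1 match each. The SP/KLF motif, found in both windows shown, was present in 32.7% of all windows. These matches describe letters only, and the motifs were chosen with the sequences in view.

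The libraries held 9265804 to 30806392 counts, and no member fell below 295 counts in any of them. Levels between groups are given as CPM, counts scaled to a common total, from the library size scaled by the trimmed mean of M-values (TMM). Marker lists showed that the scrapes differed in their makeup. A score, the mean log2 CPM of a list, ranged from 9.40 to 10.6 for 12 epithelial markers, from -1.64 to 9.65 for 6 smooth muscle markers and from -1.17 to 6.13 for 6 posterior Hox genes that mark the distal colon. The library male vehicle replicate 1 stood apart, with the lowest epithelial score and the highest smooth muscle, mesenchyme and distal colon scores. Gene by gene and with the sexes averaged, all 6 smooth muscle markers, 5 of 14 mesenchyme markers, 1 of 7 endothelial markers and 3 of 6 distal colon markers fell at 15 weeks against vehicle, and 0 of these at 9 weeks, by the call defined below. In males alone, all 6 smooth muscle markers fell at 9 weeks (median log2 fold change -5.06) and at 15 weeks (-5.39), while in females 0 of 6 were called at either time by edgeR, with medians of 2.58 and -0.62 and with 5 and 0 at an unadjusted p under 0.05. The smooth muscle score of male vehicle replicate 1 was 9.65. The other male vehicle libraries ran from 2.27 to 4.01 and overlapped the male 9-week libraries, from 0.70 to 3.29. The part of that library in the male marker values was not tested. Of 8 leukocyte markers, all were higher and 3 rose at 9 weeks with the sexes averaged (median 1.05), and 0 were called at 15 weeks by edgeR (median 0.13, 1 at an unadjusted p under 0.05). Of 12 epithelial markers, 2 rose at each time. At 9 weeks 10 of the 12 were higher, with 3 at an unadjusted p under 0.05 by edgeR. At 15 weeks all 12 were higher, with 9 at that level (median 0.22). In males alone 4 of the 12 were called at 15 weeks, all of them higher, beside 8.92% of all genes. By exact two-sided permutation tests within each sex, none of 60 differences in scores between groups passed adjustment (lowest adjusted p = 0.130). In these tests 5 against 5 libraries cannot go below an unadjusted p of 0.00794. A difference that reached this floor alone among 60 could not pass, so no conclusion is drawn from that outcome. The epithelial score in males at 9 weeks against vehicle was at the floor (difference 0.38).

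The 10 members were first ordered by TPM, a share of all transcripts that corrects for gene length, within each vehicle library. Cldn7, a claudin of the lateral membrane as well as the junction, was highest in all 10 vehicle libraries, with a median of 248 TPM. Cldn3, a barrier-tightening claudin, followed at 93.6 TPM and F11r at 77.96 TPM, in that order in 9 of 10 libraries. Next came the cation channel genes Cldn15 at 43.0 TPM and Cldn2 at 38.0 TPM, whose order held in 7 of 10 libraries. Ocln had a median of 24.8 TPM. Cldn8 at 17.8 TPM and Cldn4 at 17.2 TPM were not separated, with Cldn8 the higher in 6 of 10 libraries, and neither were Tjp1 at 13.3 TPM and Cldn23 at 11.9 TPM, where each was the higher in 5 of 10. TPM values were compared only within a library, because transcripts of the mitochondrial genome took 51.8% to 76.3% of all TPM, so that the TPM of every other gene moved with that share.

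Among the 7 claudins, Cldn7 had the largest mean share of transcripts in every group. Its share of their summed TPM was 48.7% ± 3.90 (SD, n = 5) in female vehicle, 55.3% ± 1.47 at 9 weeks and 52.5% ± 3.05 at 15 weeks, and in males 53.4% ± 2.78, 55.6% ± 1.78 and 53.1% ± 2.19. The share of Cldn4 was 3.66% ± 0.807 in female vehicle, 5.54% ± 1.17 at 9 weeks and 4.90% ± 1.72 at 15 weeks. In males it was 3.81% ± 1.47, 6.12% ± 0.743 and 5.87% ± 2.12. The channel claudins Cldn2 and Cldn15 together had 20.9% ± 4.24 in female vehicle, 16.7% ± 3.67 at 9 weeks and 18.0% ± 2.89 at 15 weeks, and in males 15.8% ± 4.89, 13.5% ± 2.63 and 14.4% ± 2.69, with overlapping ranges throughout. These shares are descriptions and were not tested.

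**Figure D1:**
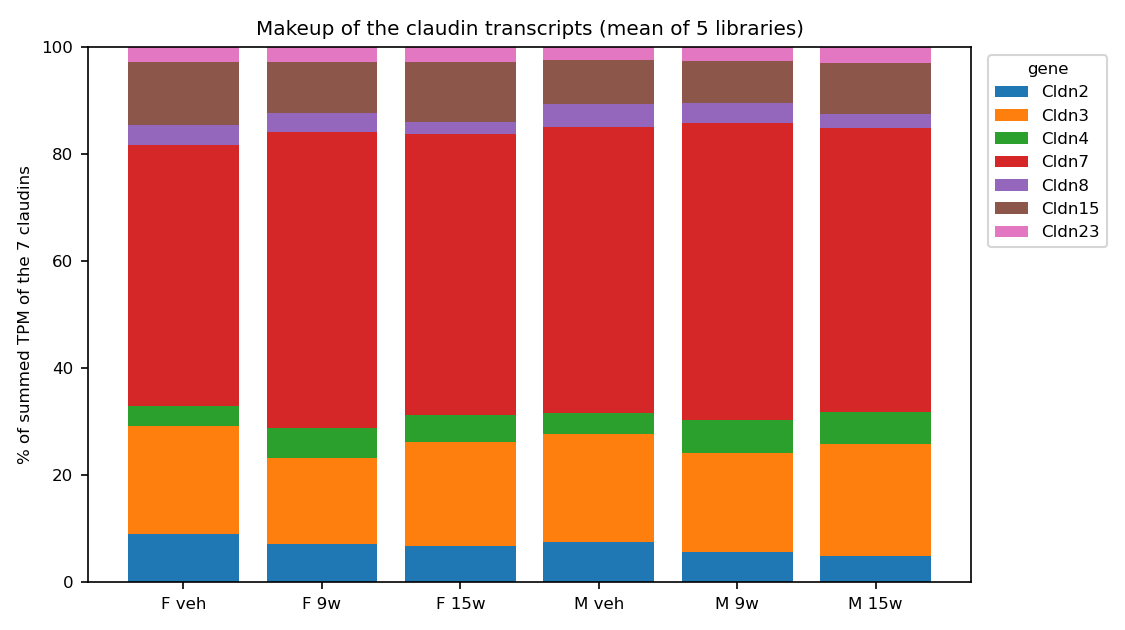
Each bar splits the summed TPM of the 7 claudins (vertical axis, percent) into mean shares of each gene in 5 libraries of a group. F is female, M male and veh vehicle, and 9w and 15w are weeks after the AOM injection. Cldn7 fills the largest segment in every bar, and the Cldn4 segment is 3.66% and 3.81% in the vehicle groups against 5.54% and 6.12% at 9 weeks.

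Cldn4 was the member that rose most under AOM/DSS. Its product tightens the barrier and is found at the surface of the colon. In female vehicle libraries it measured 71.4, 50.003, 79.8, 46.7 and 64.2 CPM in replicates 1 to 5, and in male vehicle libraries 74.7, 38.1, 64.5, 67.5 and 28.6 CPM. At 9 weeks the females measured 54.8, 87.6, 114.03, 100.8 and 127 CPM and the males 148, 88.7, 117, 123 and 107 CPM. Of the 10 libraries at 9 weeks, 9 were above every vehicle library, female replicate 1 being the exception, and in males the groups did not overlap. The share of all genes without overlap was not counted, here or for the other members below. At 15 weeks the females measured 91.4, 80.2, 76.2, 66.3 and 141 CPM and the males 100.1, 138, 63.1, 74.5 and 210 CPM. Here 6 of 10 libraries were above every vehicle library, and the ranges overlapped in both sexes.

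A gene was called when its Benjamini-Hochberg adjusted p in edgeR's quasi-likelihood test was under 0.05, its log2 fold change above 0.4 or below -0.4, and 1 of the compared groups averaged an FPKM (a level corrected for transcript length) of at least 1. With the sexes averaged, Cldn4 was the only 1 of the 10 members called at 9 weeks against vehicle, where 8.29% of all tested genes were called. Its log2 fold change was 0.86 ± 0.21 (SE, 10 against 10 libraries; adjusted p = 0.00403), a 1.82-fold rise. At 15 weeks Cldn4 and Cldn23 were called, 2 of 10 against 7.35% of all genes, and Cldn4 had a log2 fold change of 0.82 ± 0.21 (adjusted p = 0.00952). The leukocyte score was also higher on average at 9 weeks, with overlapping ranges. These were 1.15 to 2.60 in female vehicle and 2.35 to 3.97 in female 9-week libraries, and 2.11 to 2.81 and 2.71 to 4.08 in males. By permutation test the difference did not pass adjustment in either sex (adjusted p = 0.130 in each). The part of this score in the rise of Cldn4 was not tested. Within sexes, Cldn4 had a log2 fold change of 1.10 ± 0.29 in males at 9 weeks (adjusted p = 0.0166) and 1.10 ± 0.29 at 15 weeks (adjusted p = 0.0141). In females the values were 0.63 ± 0.29 (adjusted p = 0.253) and 0.54 ± 0.29 (adjusted p = 0.490), short of the threshold. The 9-week call with the sexes averaged stood in all 14 alternative fits and without each of the 20 libraries in turn. The 15-week value was 0.65 (adjusted p = 0.157) with the distal colon score as a covariate, 0.54 (adjusted p = 0.248) with a transcript length score as a covariate and 0.44 (adjusted p = 0.0628) after scaling to epithelial markers, and it also lost its call with limma on TPM (0.45, adjusted p = 0.373). The 15-week value in males was 0.80 (adjusted p = 0.0668) without male 15-week replicate 5, the highest library, and the 9-week value in males 0.93 (adjusted p = 0.0516) without male vehicle replicate 5, the lowest. In males the 15-week call was also lost in 6 of 14 other settings, down to 0.47 after scaling to epithelial markers, and the 9-week call in 3 of 14, down to 0.68 with the same scaling.

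**Figure D2:**
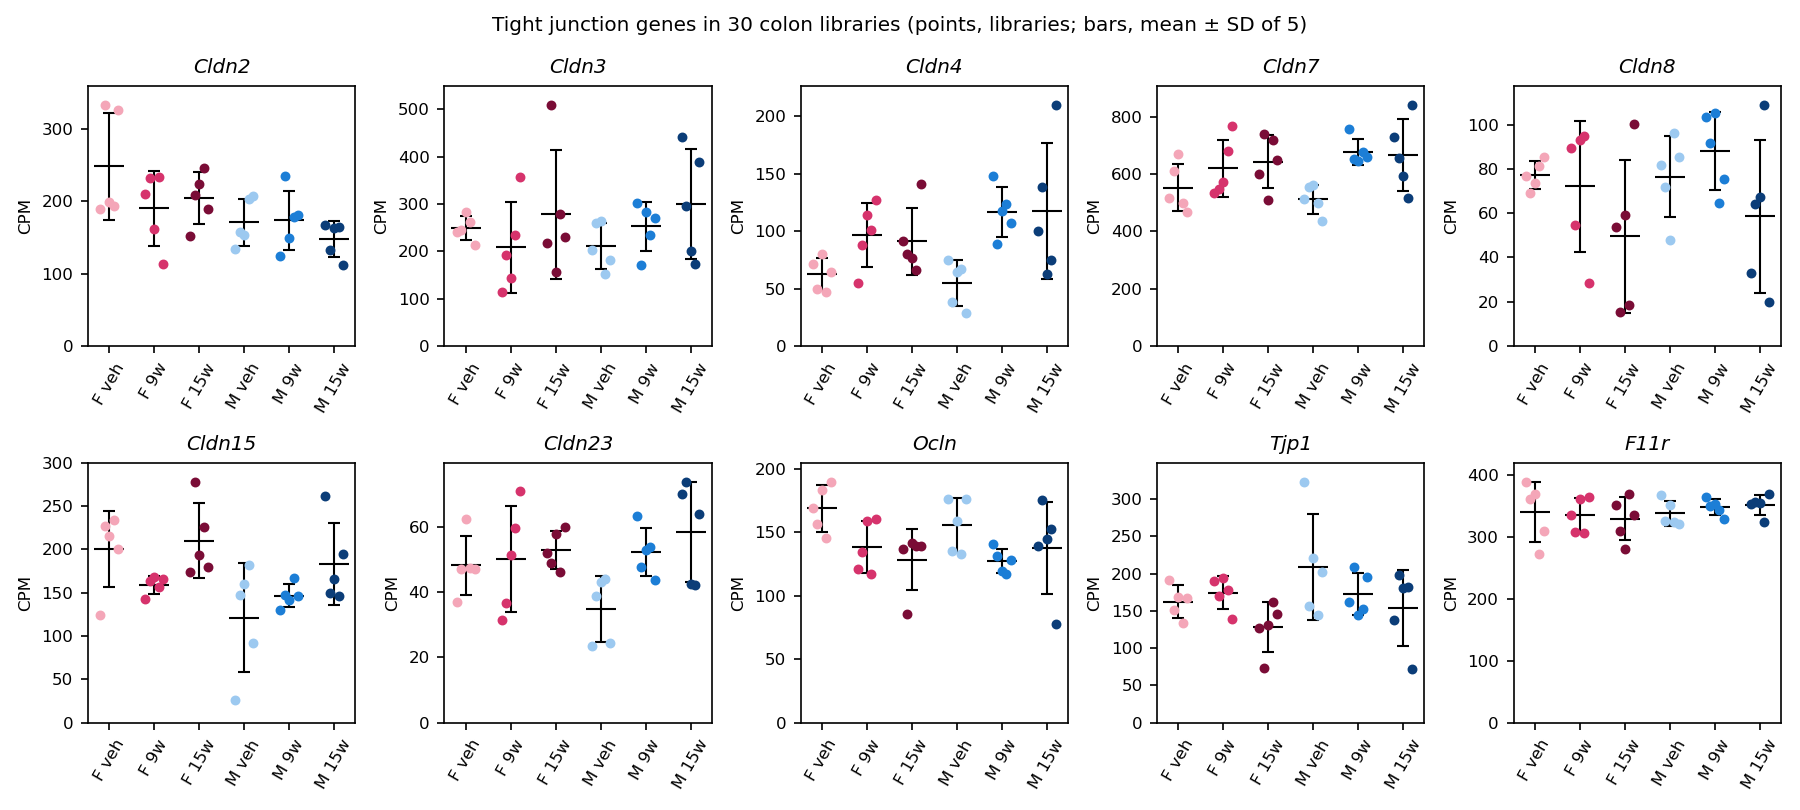
Each panel shows 1 gene, with CPM on a vertical axis from 0 and the 6 groups along the horizontal axis. F or M stands for sex, veh for vehicle, and 9w and 15w for weeks after the AOM injection. Points are single libraries and bars the mean ± SD of 5. Cldn4 at 9 weeks lies above the vehicle libraries except for 1 female library at 54.8 CPM, F11r is nearly level, and Cldn8 has low libraries at 15 weeks down to 15.5 CPM.

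Cldn23, a claudin of differentiated surface colonocytes, rose at 15 weeks. Female vehicle libraries measured 37.0, 47.0, 62.4, 47.4 and 46.9 CPM and male vehicle libraries 23.5, 38.7, 43.2, 43.9 and 24.4 CPM. At 9 weeks the females ran 31.4, 36.8, 51.2, 59.5 and 71.1 CPM and the males 63.3, 47.6, 52.7, 53.9 and 43.8 CPM. At 15 weeks they were 51.8, 48.9, 57.9, 46.1 and 59.8 CPM in females and 69.9, 73.8, 42.4, 42.0 and 63.8 CPM in males. Male vehicle replicates 1 and 5 were the lowest of all libraries, and the groups overlapped. With the sexes averaged, the log2 fold change was 0.32 ± 0.15 at 9 weeks (adjusted p = 0.142) and 0.44 ± 0.15 at 15 weeks (adjusted p = 0.0380). In males it was 0.75 ± 0.21 at 15 weeks (adjusted p = 0.0186), where 2 of 10 members and 8.92% of all genes were called. In females it was 0.14 ± 0.21 at 15 weeks (adjusted p = 0.827). The averaged call lay close to the threshold. It was lost on leaving out any of 11 single libraries (adjusted p from 0.0511 to 0.0785; log2 fold change from 0.39 to 0.45) and under 8 of the 14 other settings, with 0.10 (adjusted p = 0.716) under the distal colon covariate as the lowest value. In males at 15 weeks the call was lost without male vehicle replicate 1 or 5 or male 15-week replicate 1, and in 7 of 14 other settings, down to 0.22 after scaling to epithelial markers.

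Cldn7, needed for an intact intestinal lining in mice, was called in males at 9 weeks alone. Its level was 553 ± 83.3 CPM in female vehicle, 621 ± 100.3 at 9 weeks and 644 ± 93.2 at 15 weeks (SD, n = 5), and in males 512 ± 50.5, 678 ± 45.4 and 667 ± 125 CPM. In males the 9-week libraries, from 645 to 757 CPM, did not overlap the vehicle libraries, from 436 to 561 CPM. Cldn7 was called there with a log2 fold change of 0.40 ± 0.13 (adjusted p = 0.0461), which made 2 of 10 members beside 7.31% of all genes in that comparison. The call was lost on leaving out any single library of the 10 compared and in 8 of 14 other settings, down to 0.011 after scaling to epithelial markers. All 6 smooth muscle markers fell in the same comparison. The epithelial score ran from 9.40 to 10.04 in male vehicle and from 10.13 to 10.23 in male 9-week libraries, without overlap. The part of both in the Cldn7 value was not tested beyond the settings named here. With the sexes averaged, the log2 fold change of 0.29 ± 0.092 at 9 weeks (adjusted p = 0.0328) and 0.30 ± 0.092 at 15 weeks (adjusted p = 0.0274) passed the p threshold but not the fold threshold. At 15 weeks it was -0.075 after scaling to epithelial markers.

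Cldn3 and Cldn8, a further pair of barrier claudins, were not called in any comparison. Cldn3 had means of 249, 208 and 278 CPM in female vehicle, 9-week and 15-week libraries and 212, 252 and 300.3 CPM in the males. Its 15-week libraries spread from 156 to 508 CPM, a range that contained all vehicle libraries but 1, male replicate 4 at 153 CPM. The log2 fold change with the sexes averaged was -0.0018 ± 0.20 at 9 weeks (adjusted p = 0.996) and 0.33 ± 0.20 at 15 weeks (adjusted p = 0.254), against the 0.86 and 0.82 of its neighbor Cldn4. The difference between the 2 genes was not tested. Cldn8 ran from 47.8 to 96.0 CPM in the vehicle libraries. At 15 weeks it was 15.5 and 18.5 CPM in female replicates 2 and 4 and 19.8 and 32.9 CPM in male replicates 5 and 1, while the other 6 libraries ran from 54.0 to 109 CPM. Female 9-week replicate 5 was also low at 28.4 CPM. The distal colon score was below 0 in all 5 of these low libraries, and also in 4 libraries that were not low, female vehicle replicates 2 and 3 at 69.2 and 73.8 CPM and female 15-week replicates 1 and 3 at 54.0 and 59.1 CPM. The part of that score in the low values was not tested beyond the within-group relation given below and a covariate fit. With the sexes averaged, Cldn8 had a log2 fold change of -0.52 ± 0.29 at 15 weeks (adjusted p = 0.201).

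The cation channel genes were not called either. Cldn2, expressed in crypts, had means of 248, 190 and 204 CPM in female vehicle, 9-week and 15-week libraries and 171, 173 and 148 CPM in the males. Its log2 fold change with the sexes averaged was -0.18 ± 0.14 at 9 weeks (adjusted p = 0.440) and -0.25 ± 0.14 at 15 weeks (adjusted p = 0.229). Cldn15 had means of 200.3, 159.2 and 210.3 CPM in females and 121.4, 146.4 and 183 CPM in males, and male vehicle replicate 1 stood out at 26.3 CPM. In females the 15-week libraries, from 174 to 278 CPM, lay above the 9-week libraries, from 142.5 to 168.1 CPM. No edgeR comparison set 15 against 9 weeks within a sex. With the sexes averaged, 15 weeks against 9 weeks gave a log2 fold change of 0.36 ± 0.20 for Cldn15 (adjusted p = 0.264).

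The 3 members outside the claudin family were not called in any comparison. Ocln had means of 168.5, 138 and 128 CPM in female vehicle, 9-week and 15-week libraries and 156, 127 and 138 CPM in the males. The 5 female 15-week libraries, from 85.1 to 141.7 CPM, lay below all female vehicle libraries, from 145 to 190 CPM. In that comparison Ocln was not called, with a log2 fold change of -0.39 ± 0.16 (adjusted p = 0.375). Its log2 fold change was -0.29 ± 0.11 at 9 weeks (adjusted p = 0.0748) and -0.29 ± 0.11 at 15 weeks (adjusted p = 0.0711) with the sexes averaged, short of both thresholds. It was called lower after scaling to epithelial markers, with -0.55 (adjusted p = 0.0130) and -0.64 (adjusted p = 0.00386). With that scaling 3045 and 4869 of the 16261 tested genes were called, and only 20.1% and 4.27% of these rose. Ocln was also called lower at 15 weeks with limma on TPM rescaled without mitochondrial genes (-0.45, adjusted p = 0.0221). Tjp1 had means of 162.3, 174 and 128 CPM in females and 209, 173 and 154.2 CPM in males, where male vehicle replicate 1 measured 323 CPM and male 15-week replicate 5 measured 72.2 CPM. At 15 weeks its log2 fold change was -0.39 ± 0.16 (adjusted p = 0.0815), and 0.15 with the transcript length score as a covariate. F11r varied least of the 10, from 272 to 389 CPM over all libraries, with log2 fold changes of 0.010 ± 0.063 at 9 weeks and 0.0047 ± 0.063 at 15 weeks.

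**Figure D3:**
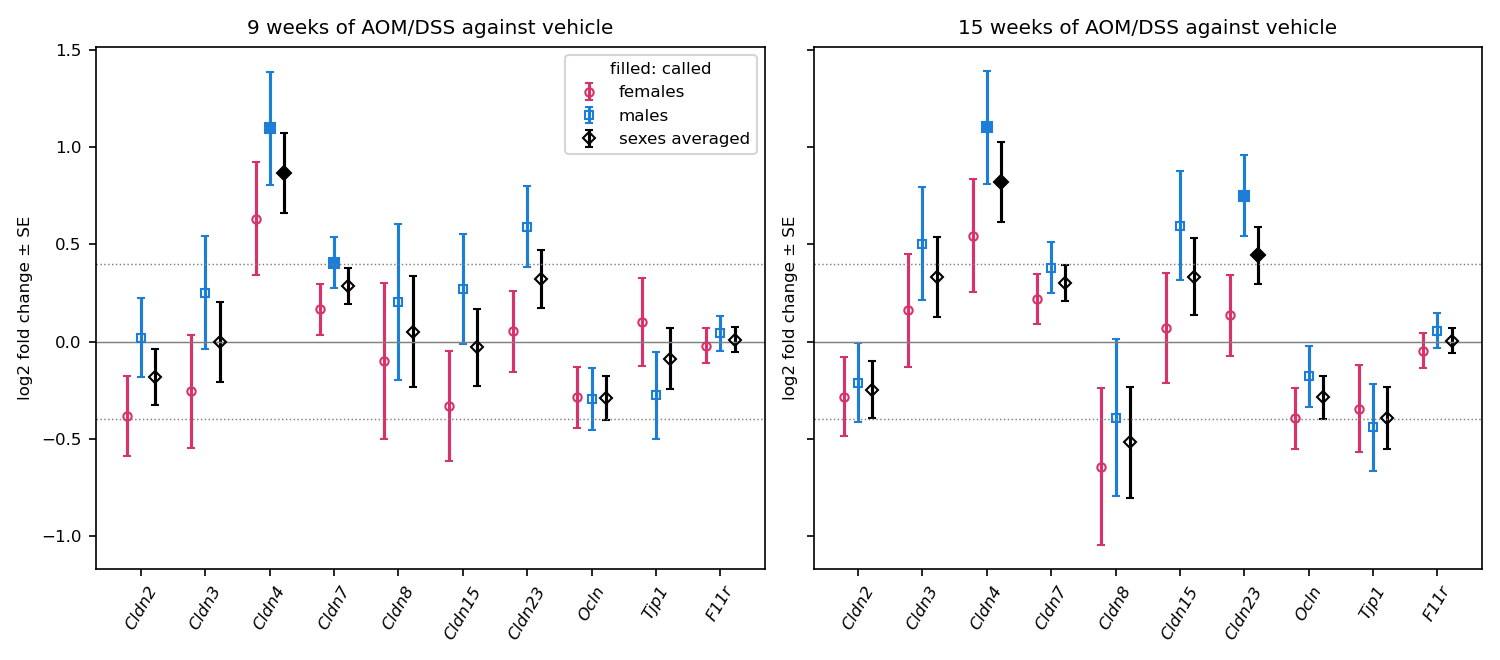
Log2 fold change of each member against vehicle (vertical axis, ± SE from edgeR) at 9 weeks (left) and 15 weeks (right), for females (circles), males (squares) and the sexes averaged (diamonds), with filled symbols for called values and dotted lines at 0.4 and -0.4. Cldn4 is filled for males and for the average at both times, Cldn7 for males at 9 weeks, and Cldn23 for males and the average at 15 weeks.

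At 15 weeks against 9 weeks, 0 of 10 members were called, with 2.32% of all genes called. No member had an unadjusted p under 0.05 there by edgeR, and DESeq2 called 0. Limma on log2(TPM + 1) called 6 members lower, beside 7552 genes in all, with the median of all genes moved to -0.43 on that scale, and 0 members once TPM was rescaled without mitochondrial genes. In females 0 members were called at 9 weeks, with 2.90% of all genes, and 0 at 15 weeks, with 0.0984%. By unadjusted p under 0.05, edgeR gave 1 member in each, Cldn4 at 9 weeks and Ocln at 15 weeks, and DESeq2 called 0 in both.

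Males and females were compared directly at each stage, and 0 members were called in vehicle, 9-week or 15-week mice, where 0.178%, 0.0492% and 0.184% of all genes were. Male vehicle replicate 1 had a smooth muscle score of 9.65, beside 2.27 to 4.01 in the other male and -1.33 to 2.52 in the female vehicle libraries. In vehicle mice all 6 smooth muscle markers were called higher in males (median log2 fold change 6.51), and all 14 mesenchyme and all 7 endothelial markers were higher at an unadjusted p under 0.05. All 6 distal colon markers were higher in these males too (median 2.39), with 0 called and 1 at an unadjusted p under 0.05 by edgeR. All 6 markers of the proximal colon were lower (median -1.92), with 0 called and 0 at that level. The part of all these markers in the sex differences was not tested. At an unadjusted p under 0.05, edgeR gave 3 members in vehicle mice, Cldn2 (log2 fold change of males over females -0.54 ± 0.20), Cldn15 (-0.72 ± 0.28) and Cldn23 (-0.47 ± 0.21), then 0 members at 9 weeks and 1 at 15 weeks, Cldn2 (-0.46 ± 0.20). DESeq2 called 0 members in all 3. The interaction of sex with AOM/DSS called 0 members and 0% of all genes at either time. Its estimate for Cldn4 was 0.46 ± 0.41 at 9 weeks (adjusted p = 0.828) and 0.56 ± 0.41 at 15 weeks (adjusted p = 0.815), and for Cldn23 0.61 ± 0.29 at 15 weeks (adjusted p = 0.642), the only member with an unadjusted p under 0.05 in either interaction. The sexes were therefore not shown to differ in their response for any member. DESeq2 called 0 members in both interactions.

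Other genes of the tight junction were read from a list of 44, of which 32 were tested. At 9 weeks with the sexes averaged 0 rose and 2 fell, where 5.51% of all genes rose and 2.78% fell. These were Prkcz, an atypical protein kinase C of cell polarity (log2 fold change -0.54 ± 0.14, adjusted p = 0.00906), and Amotl1, an angiomotin-like scaffold (-0.82 ± 0.26, adjusted p = 0.0314). At 15 weeks 2 rose and 2 fell, beside 3.46% and 3.89% of all genes. Ildr1, a protein of tricellular contacts, rose by 0.42 ± 0.13 (adjusted p = 0.0269), as did Crb3, an apical polarity protein, by 0.43 ± 0.14 (adjusted p = 0.0300). Cgnl1, which is paracingulin, fell by 0.56 ± 0.16 (adjusted p = 0.0171) and Amotl1 fell by 1.64 ± 0.27 (adjusted p = 0.000318). The median log2 fold change of the 32 genes was -0.10 at 9 weeks and -0.19 at 15 weeks, beside -0.02 and -0.03 for all tested genes, and that of the 10 members was 0.0042 and 0.15. At 15 weeks against 9 weeks 0 of the 32 were called, beside 2.32% of all genes, with 8 at an unadjusted p under 0.05 by edgeR. With the distal colon score or the transcript length score as a covariate, the 15-week count was 1, Amotl1. In males alone, 2 of the 32 were called at 9 weeks, 1 up and 1 down, beside 7.31% of all genes. At 15 weeks 6 were called in males, 3 up and 3 down, beside 8.92% of all genes. The smooth muscle markers fell in males at both times as well.

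Further scaffolds and tricellular genes, named by rule, were not called. At 15 weeks the log2 fold change was 0.08 for Tjp3, a paralog of Tjp1, -0.18 for the scaffold cingulin (Cgn), -0.04 for tricellulin (Marveld2) and -0.35 for Lsr, a further tricellular protein. Of 14 genes of adherens junctions and desmosomes, 1 was called at each time with the sexes averaged, beside 8.29% and 7.35% of all genes. Dsc2, a desmosomal cadherin, was called higher at 9 weeks (0.60 ± 0.12, adjusted p = 0.000992) and at 15 weeks (0.41 ± 0.12, adjusted p = 0.0247). In males at 15 weeks Ctnnd1, a catenin that binds cadherins, was called as well (0.46 ± 0.11, adjusted p = 0.00750). Both were named after their values were seen. E-cadherin (Cdh1) had log2 fold changes of 0.09 at 9 weeks (adjusted p = 0.534) and -0.09 at 15 weeks (adjusted p = 0.483).

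Several members varied with the makeup of the scrape within groups. After each group's mean was taken away, the log2 CPM of the 10 members was related to the epithelial, mesenchyme and distal colon scores over 30 libraries, 30 relations in all, with permutations within groups. Cldn23 was lower where the distal colon score was higher (r = -0.76, rho = -0.75, r = -0.71 without the 2 farthest libraries; adjusted permutation p = 0.000900 for r). The same held for Cldn7 (r = -0.66, rho = -0.66, then r = -0.74), Cldn15 (r = -0.62, rho = -0.62, then r = -0.49) and Cldn3 (r = -0.55, rho = -0.59, then r = -0.63). The reverse held for Tjp1 (r = 0.58, rho = 0.63, then r = 0.50) and Cldn8 (r = 0.43, rho = 0.41, then r = 0.48). For Cldn8 r passed adjustment (adjusted permutation p = 0.0126) and rho did not (adjusted permutation p = 0.0565). For Cldn4 the relation did not pass adjustment (r = -0.26, rho = -0.28, adjusted permutation p = 0.355, r = -0.46 without the 2 farthest libraries). The epithelial score rose with Cldn7 (r = 0.78, rho = 0.76, then r = 0.83) and fell with Cldn8 (r = -0.65, rho = -0.61, then r = -0.65). Past adjustment it also rose with Cldn15 (r = 0.68, rho = 0.69, then r = 0.61), Cldn3 (r = 0.65, rho = 0.66, then r = 0.66) and Cldn23 (r = 0.62, rho = 0.60, then r = 0.52). It fell with Tjp1 (r = -0.56, adjusted permutation p = 0.0396), where rho did not pass (rho = -0.48, adjusted permutation p = 0.0633). No member was related to the mesenchyme score past adjustment. Mean distal colon scores were 1.51 in female vehicle, 1.502 at 9 weeks and -0.54 at 15 weeks, and in males 3.32, 2.20 and 1.09, so that the score was lowest, within each sex, in the 15-week groups. Its part in the 15-week call of Cldn23 was not tested beyond the covariate fit above.

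A transcript length score, added after the data were seen, is the mean log2 CPM of the longest tertile of 14098 genes minus that of the shortest. It was lowest in male 15-week replicate 5 (-0.52) and female 15-week replicate 2 (-0.49) and highest in male vehicle replicate 1 (0.30), with means of 0.01, -0.02 and -0.18 in female vehicle, 9-week and 15-week libraries and 0.11, -0.03 and -0.18 in the males. A GC score was built likewise from the GC content of transcripts. In this family of 20 relations, Tjp1 rose with the length score (r = 0.90, rho = 0.86, then r = 0.83) and so did Ocln (r = 0.68, rho = 0.56, then r = 0.37). Past adjustment, Cldn8 (r = 0.65) and Cldn2 (r = 0.43) rose with it too. Cldn3 (r = -0.69), Cldn7 (r = -0.64), Cldn15 (r = -0.49) and Cldn23 (r = -0.47) fell. With the GC score Cldn3 rose (r = 0.85, rho = 0.81, then r = 0.79). Cldn7 rose with it as well (r = 0.72). Cldn8 (r = -0.66), Ocln (r = -0.52), Tjp1 (r = -0.51) and Cldn2 (r = -0.47) fell, though rho did not pass for Ocln and Tjp1. Cldn4 had r = -0.34 with the length score (rho = -0.23, adjusted permutation p = 0.175 for r). Its r with the GC score was 0.48 (rho = 0.44, adjusted permutation p = 0.0308 for r), and there rho did not pass either (adjusted permutation p = 0.0502). The part of these scores in the 15-week results was not tested beyond the covariate fits given here.

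**Figure D4:**
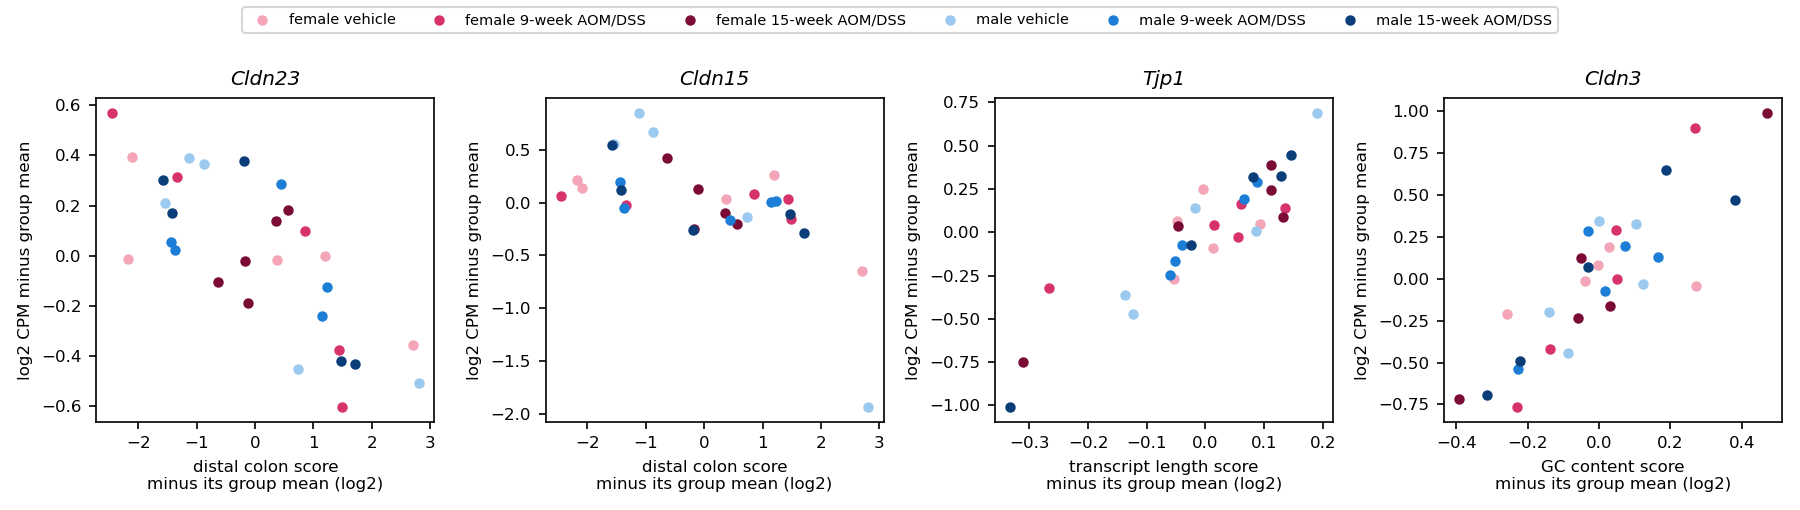
Log2 CPM of 4 members (vertical axes) against library scores (horizontal axes, log2), both as distance from the group mean, with 1 point for each of 30 libraries colored by group. Cldn23 and Cldn15 fall with the distal colon score, Tjp1 rises with the transcript length score (r = 0.90) and Cldn3 with the GC score (r = 0.85), and 1 male vehicle library lies low in the Cldn15 panel.

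The genes most like the called members over all 30 libraries were sought by Pearson's r of log2 CPM, as a description, since all points share libraries and groups. For Cldn4 they were Rap2b (r = 0.82), Abhd12 (r = 0.81) and Epha2 (r = 0.80). With group means removed, their r was 0.71, 0.64 and 0.71. For Cldn23 they were Ier5 (r = 0.86), Cystm1 (r = 0.86) and Sdcbp2 (r = 0.85), and 0.80, 0.79 and 0.77 with group means removed. Among the members themselves, the closest pairs with group means removed were Cldn3 with Cldn7 (r = 0.80) and Ocln with Tjp1 (r = 0.79), and the most opposed Cldn3 with Cldn8 (r = -0.73).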

How the data were processed

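Poly(A) RNA of 30 colon epithelial scrapes was sequenced from stranded TruSeq libraries. Per the submitters' processing notes and the methods, reads were converted with bcl2fastq 2.20.0.422, trimmed with Trim Galore and aligned with STAR to the mouse genome (mm10). The authors deposited raw counts per gene from featureCounts, whose strand setting is not given in the sources used here, and FPKM and TPM values per library from StringTie. Repeated gene lines in the StringTie files, 11 to 20 a file, were added.

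Counts were scaled by TMM (factors 0.832 to 1.10), filtered by edgeR's filterByExpr and fitted with edgeR 4.0.16 (quasi-likelihood, 6 groups, 30 libraries; R 4.3.3). A call needed a Benjamini-Hochberg adjusted p under 0.05 over 16261 genes, a log2 fold change beyond 0.4 and a mean FPKM of at least 1. The standard error is the log2 fold change over the root of F. There were 12 comparisons. Log2 CPM used a prior count of 2. Permutation tests of relations used 100000 draws. Alternatives used DESeq2 1.42.0, limma 3.58.1 on log2 TPM, other scalings, filters, covariates, a replicate block and leaving out each library. The code was tested on simulated data.

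Named were all 10 members, with every library for those called with the sexes averaged, other tight junction genes called there plus Tjp3, Cgn, Marveld2 and Lsr, Cdh1, and the 3 genes most like each called member. One further gene of the rule is not reported here. Members and lists were chosen with earlier results of these data known.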

Additional observations from a re-analysis of the deposited data

Results flagged for a closer look

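In 60 groups of 5 libraries, 10 members in 6 groups, 3 libraries lay apart from the other 4 of their group by Dixon's criterion, where chance alone flags about 1 group in 20. Cldn15 in female vehicle replicate 1 was at 6.96 log2 CPM, the lowest of its group (125 CPM). Ocln in female 15-week replicate 2 was at 6.41 log2 CPM (85.1 CPM), and in male 15-week replicate 5 at 6.28 log2 CPM (77.8 CPM), each the lowest of its group. The latter libraries also had the lowest transcript length scores, -0.49 and -0.52, whose part in the Ocln values was not tested.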

How the results depend on the processing

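The rise of Cldn4 at 9 weeks with the sexes averaged kept its call in every setting, from 0.61 to 1.21 on the log2 scale. Over 42 log2 fold changes of the members and 1308 values under other settings or with 1 library left out, 1083 kept direction and side of the threshold, 63 lost it, 26 gained it and 136 changed sign. The length and GC covariates and the rescaled TPM were chosen after seeing the data. Causes of the changes below were not tested.

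Of the members, 1 was called at 9 weeks, and 2 after scaling to epithelial markers (Cldn4 and Ocln) or by adjusted p alone (Cldn4 and Cldn7). At 15 weeks 2 were called, against 1 with the replicate block or the mesenchyme covariate, 0 with the distal colon or length covariate or limma on TPM with either pseudocount, and 4 with rescaled TPM (Cldn4, Cldn8, Ocln and Tjp1). After scaling to epithelial markers the 3 called then were Cldn2, Ocln and Tjp1, lower, and not Cldn4. That scaling called 3045 of all genes at 9 weeks and 4869 at 15 weeks. At 15 against 9 weeks limma on TPM called 6 in place of 0 with either pseudocount. In males at 9 weeks 2 were called, against 1 after scaling to epithelial markers (Ocln), without the count filter, with the replicate block, with the length covariate or with rescaled TPM, and 0 with limma on TPM. In males at 15 weeks 2 were called, against 4 after scaling to epithelial markers (Cldn2, Ocln, Tjp1 and F11r), 1 with the mesenchyme covariate, and 0 on the compared libraries only, with the distal colon or length covariate, or with limma on TPM.

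Of the other tight junction genes, 2 were called at 9 weeks, against 9 scaled to epithelial markers, 4 by adjusted p alone and 0 with limma on TPM. At 15 weeks 4 were called, against 16 scaled to epithelial markers, 11 by adjusted p alone, 2 with the mesenchyme covariate, 1 each with the distal colon covariate, the length covariate and limma on TPM, and 7 with rescaled TPM. Scaled to epithelial markers, 3045 of all genes were called at 9 weeks and 4869 at 15 weeks. At 15 against 9 weeks, 0 became 1 by adjusted p alone and 18 with limma on TPM. With 1 library left out, counts of members ran from 1 to 1 at 9 weeks, 1 to 3 at 15 weeks, 0 to 2 in males at 9 weeks (0 without male vehicle replicate 5) and 1 to 3 in males at 15 weeks, and stayed at 0 elsewhere. Counts of the other genes ran from 1 to 3, 2 to 6 and 0 to 1 in the 3 comparisons with the sexes averaged. Amotl1 at 9 weeks was lost without female vehicle replicate 1, male vehicle replicate 1, female 9-week replicate 3 or 4, or male 9-week replicate 2 or 4. At 15 weeks the count was 2 without male vehicle replicate 1 or 5 or male 15-week replicate 1. Tjp1 was called at 15 weeks without male vehicle replicate 4 (-0.45, adjusted p = 0.0454).

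Of all genes called, 66.5% rose at 9 weeks, 47.0% at 15 weeks and 18.0% at 15 against 9 weeks. With TPM these were 97.1%, 22.02% and 0.146%, and scaled to epithelial markers 20.1%, 4.27% and 4.83%. The genes called with the latter scaling numbered 3045, 4869 and 414. The median of all genes moved from -0.024, -0.025 and -0.021 to 0.20, -0.18 and -0.43 with TPM and to -0.27, -0.38 and -0.14 scaled to epithelial markers.

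Signs changed as follows on the log2 scale. With limma on log2(TPM + 1) the values were at 9 weeks Cldn2 0.13, Cldn3 0.27, Cldn15 0.43, Ocln 0.0778 and Tjp1 0.24, at 15 weeks Cldn3 -0.0648 and F11r -0.30, at 15 against 9 weeks Cldn3 -0.33, Cldn7 -0.63, Cldn15 -0.30, Cldn23 -0.46 and Ocln -0.65, in males at 15 weeks Cldn7 -0.0990. With limma on log2(TPM + 0.1) the values were at 9 weeks Cldn2 0.13, Cldn3 0.27, Cldn15 0.44, Ocln 0.0830 and Tjp1 0.26, at 15 weeks Cldn3 -0.0664 and F11r -0.30, at 15 against 9 weeks Cldn3 -0.34, Cldn7 -0.64, Cldn15 -0.31, Cldn23 -0.50 and Ocln -0.69, in males at 15 weeks Cldn7 -0.10. With DESeq2 the values were at 9 weeks Cldn3 0.00787. With DESeq2 size factors the values were at 9 weeks Cldn3 0.00774. Without the filter on low counts the values were at 9 weeks Cldn3 0.00406, at 15 against 9 weeks F11r 0.00259. On the compared libraries only the values were at 9 weeks Cldn3 0.0129. With the GC score as a covariate the values were at 9 weeks Cldn3 0.0429 and Cldn8 -0.11, at 15 weeks F11r -0.00250, at 15 against 9 weeks Cldn2 0.0138 and Cldn7 -0.0627. Scaled to epithelial markers the values were at 9 weeks Cldn8 -0.19 and F11r -0.23, at 15 weeks Cldn3 -0.0855, Cldn7 -0.0748, Cldn15 -7.98e-06 and F11r -0.36, at 15 against 9 weeks Cldn7 -0.12 and Ocln -0.0834, in males at 15 weeks Cldn7 -0.20, in females at 9 weeks Cldn23 -0.0493, in females at 15 weeks Cldn23 -0.00296. With rescaled TPM the values were at 9 weeks Cldn8 -0.0563, Cldn15 0.0675 and F11r -0.0291, at 15 weeks F11r -0.15, at 15 against 9 weeks Cldn7 -0.11 and Ocln -0.16. With the replicate block the values were at 9 weeks Cldn15 0.0198. With the mesenchyme covariate the values were at 9 weeks Cldn15 0.19, at 15 against 9 weeks Cldn4 0.14, Cldn23 -0.00230, Ocln -0.0430 and F11r 0.0102. With the length covariate the values were at 9 weeks Tjp1 0.14, at 15 weeks Cldn3 -0.29, Cldn8 0.11, Cldn15 -0.0137, Tjp1 0.15 and F11r -0.0107, at 15 against 9 weeks Cldn2 0.10, Cldn3 -0.0369, Cldn7 -0.13, Cldn23 -0.0264 and Tjp1 0.0162, in females at 9 weeks Cldn23 -0.0111, in females at 15 weeks Cldn23 -0.0583. With the distal colon covariate the values were at 15 weeks Cldn3 -0.0840, Cldn15 -0.0109 and F11r -0.0122, at 15 against 9 weeks Cldn7 -0.12 and Cldn23 -0.13, in females at 15 weeks Cldn23 -0.19. With 1 library left out, the ranges of values that changed sign were at 9 weeks Cldn3 from -0.15 to 0.0763, Cldn8 from -0.0133 to 0.15, Cldn15 from -0.16 to 0.0654, Tjp1 from -0.14 to 0.0182 and F11r from -0.0268 to 0.0365, at 15 weeks F11r from -0.0179 to 0.0350, at 15 against 9 weeks Cldn2 from -0.12 to 0.00136, Cldn4 from -0.19 to 0.0496, Cldn7 from -0.0206 to 0.0763, Ocln from -0.0463 to 0.0928 and F11r from -0.0276 to 0.0290, in females at 9 weeks Cldn23 from -0.12 to 0.18.

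Replicate numbers only name the libraries. Of 75 same-number pairs, 12 had deviations that correlated above 0.1 (from -0.58 to 0.47, mean -0.030, against 0.0067 for other pairs), and 4 of 30 libraries correlated best with their own number. The block moved the calls only as given above. Counting error was small at 295 or more counts per member, and the spread among 5 libraries limited the precision.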
